A study of Mus musculus with 8 samples.

Results

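The RNA described here came from control bone marrow-derived macrophages at rest: 3 of the 8 samples of a mouse study of the transcription factor Ets1 and macrophage polarization. The members are set by their labels, as the RNA samples with the genotype control (Ets1 f/f), which carry floxed Ets1 alleles and no Lyz2-cre. Marrow was taken from male mice at 8 weeks of age and grown for 7 days with M-CSF at 10 ng/ml, 10% serum and antibiotics, and the labels name no polarizing agent for these cells. The knockout RNA and the Ets1 ChIP samples of polarized cells are not analysed here. Whether a library came from its own mouse, from pooled marrow or from a shared culture is not given in the sources used here, so the spread between the 3 libraries may be technical.

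M-CSF acts through its receptor Csf1r to keep marrow progenitors alive and turn them into adherent macrophages. Such cells take up particles, lipids and dying cells, break them down in lysosomes, store iron in ferritin, and move and engulf by remodelling actin. Their identity rests on factors such as PU.1 (Spi1), C/EBP and Maf proteins, and they secrete complement component C1q, apolipoprotein E and chemokines.

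In the following text a normalized read count is the deposited value, a gene's reads divided by 1 size factor per library. TPM is the same reads scaled by gene length to the same total in every library, and RPM the reads scaled to the library's total without length. Lists of 3 values stand for control replicates 1, 2 and 3, and ± gives the SD over these 3. The libraries held 20259175, 17706149 and 17868912 recovered reads on genes. Of 23346 listed genes, 17494 had a read in every control library, 22430 in at least 1, and 916 in none. A mean of at least 1 TPM was reached by 14361 genes, at least 10 TPM by 8514, at least 100 TPM by 1626 and at least 1000 TPM by 105.

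The macrophage markers stood among the most abundant genes, as the label says. Lyz2, the lysozyme of myeloid cells, had normalized counts of 128113, 134916 and 151844 and stood at rank 7. Adgre1, which encodes the F4/80 antigen, had 76999, 68559.9 and 59435 and stood at rank 11. Csf1r, the M-CSF receptor, had 49028, 46155 and 42480.2 and stood at rank 19. Cd68, a lysosomal membrane protein of phagocytes, had 9494, 9137 and 9159.6 and stood at rank 235 by count and 66 per length. The 3 libraries lay close to each other for Cd68 and Csf1r. Ets1 itself (ENSMUSG00000032035, chromosome 9, 32636221 to 32757820, plus strand on mm10) was transcribed at a moderate level, with normalized counts of 3641, 3337 and 2869 and 73.7 ± 9.57 TPM. It stood at place 5 of the 23 genes that the deposited table assigns to the ETS family, after Spi1 (555 TPM), Elf4 (104), Ets2 (96.4) and Fli1 (94.1). Elf4, Ets2 and Fli1 overlapped one another in TPM, and Ets1 lay below each of them in every library. The Y-linked genes Ddx3y, Eif2s3y, Uty and Kdm5d were read in all 3 libraries, between 43.8 and 105 RPM on average, and Xist was at the floor of 0.0537 RPM that 3 reads over the group would give.

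The reads were concentrated in a small set of genes. The 10 most abundant took 8.61, 9.04 and 9.6% of all reads on genes, the 100 most abundant 23.4, 23.3 and 23.2%, and the 1000 most abundant 55.7, 55.5 and 55%. The first 751 genes held 50% of the reads of the 3 libraries together.

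**Figure D1:**
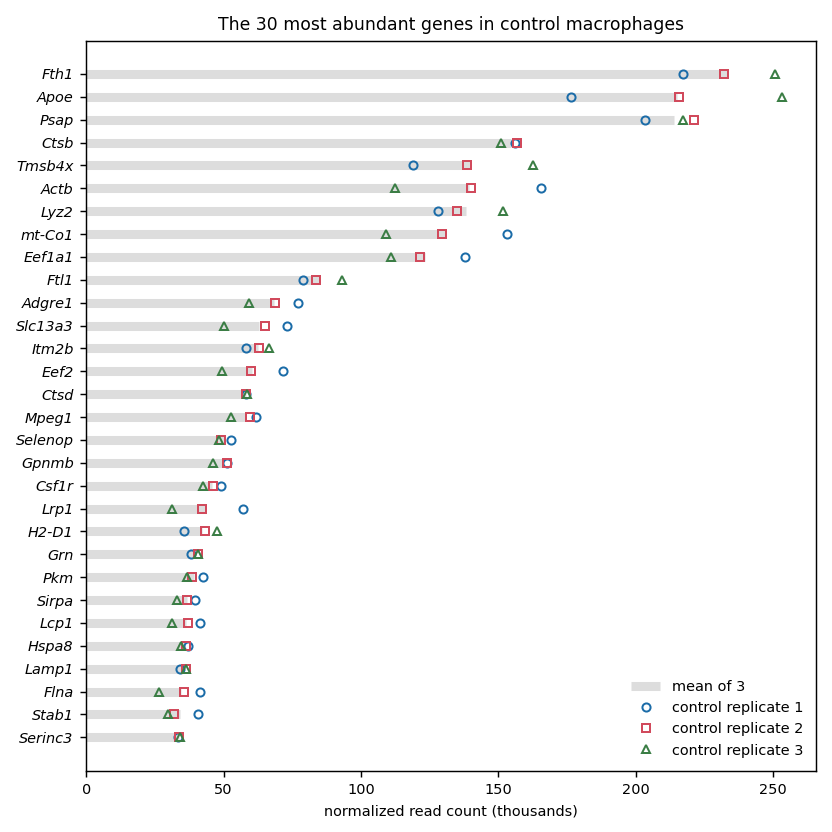
Normalized read counts (horizontal axis, in units of 1000) of the 30 genes with the highest mean in control macrophages. Points are the 3 control replicates and grey bars their mean; Fth1, Apoe and Psap lead with means of 233317, 215187 and 214104, and 17 of the 30 genes are highest in replicate 1 against 10 in replicate 3.

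By normalized count, which ranks genes by the reads they take and not by level per length, the first place went to Fth1, the ferritin heavy chain that stores iron, with 217207, 232080 and 250663. Apoe, a lipid carrier that macrophages secrete, followed with 176656, 215706 and 253199, and Psap, the precursor of the saposins that help lysosomal lipid breakdown, with 203557, 221393 and 217362. The values of Apoe and Fth1 overlapped between libraries, so their order rests on the mean. Ctsb, a lysosomal cysteine protease, had 156296, 156878 and 151140. Tmsb4x, which binds actin monomers, had 118896, 138541 and 162492, and Actb, beta-actin, had 165534, 139988 and 112348. The libraries ordered these genes in opposite ways, Tmsb4x being highest in replicate 3 and Actb in replicate 1. The places up to 10 went on with Lyz2, mt-Co1 (a cytochrome c oxidase subunit read from mitochondrial DNA, 130627 ± 22016), Eef1a1 (the elongation factor that brings tRNA to the ribosome, 123451 ± 13414) and Ftl1 (the ferritin light chain, 85277 ± 7294).

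Between places 11 and 30 the genes again had a few known roles. Lysosomal and endocytic genes were Ctsd, an aspartic protease (58009.7, 58203 and 58478), Mpeg1, a pore-forming protein of phagosomes (57909 ± 4778), Gpnmb, a glycoprotein of lysosomes (49536 ± 2781), Grn, the progranulin gene (39922 ± 1532), and Lamp1, a main protein of the lysosomal membrane (35548 ± 1341). Receptors were Adgre1, Csf1r, Lrp1, an endocytic receptor of lipoproteins (57004, 42101 and 31336), Sirpa, the receptor for CD47 (36511 ± 3337), and Stab1, a scavenger receptor (34212 ± 5755). Lcp1, a bundler of actin in white blood cells (36471 ± 5179), and Flna, which crosslinks actin (34473 ± 7473), made up the cytoskeletal part. The rest were Eef2, Itm2b, Selenop, H2-D1, Pkm, Hspa8, Serinc3 and Slc13a3. Ctsd and Serinc3 differed least between libraries, with CVs of 0.404% and 0.985%, and Lrp1 most, with 29.6%.

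Slc13a3, a sodium-coupled carrier of dicarboxylates best known from kidney, stood at rank 12 by count and 30 per length. Its normalized counts were 73248, 65042 and 50093, highest in replicate 1. Selenop, which encodes a selenium transport protein of plasma made mainly in liver, had 52814, 49206 and 48199. Fcrls, an Fc receptor-like gene known in mouse from microglia, lies outside the first 30 and was singled out after its values were seen: it stood at rank 50 by count, with 25797, 25367 and 22501, and at rank 38 per length.

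Scaled by length, Fth1 led by far, with 48483, 50403 and 54669 TPM. Lyz2 (18818, 19282 and 21793 TPM), Tmsb4x (16764, 19005 and 22385 TPM) and Apoe (15972, 18975 and 22368 TPM) came next and overlapped one another. mt-Co1 and Psap followed by mean, with 16093 ± 2922 and 14825 ± 434 TPM. mt-Co1 overlapped Lyz2, Tmsb4x and Apoe, and in replicate 1 it stood above each of them with 19162 TPM. Short genes stood higher than in the count ranking. B2m, the shared light chain of MHC class I molecules, was at rank 35 by count and 11 per length (5840.3, 6898 and 8456 TPM), and C1qb, a chain of complement C1q, was at rank 39 by count and 12 per length (4291, 5168 and 6041 TPM). Rplp1, a stalk protein of the ribosome, was at ranks 171 and 17 (4152 ± 684 TPM). Spp1, the secreted phosphoprotein osteopontin, reached 3876 ± 471 TPM. Of the first 30 genes by count, 19 were among the first 30 per length. Gm23935, listed as a miRNA gene of 57 bases, held rank 7 per length with 14144, 23882 and 5623 TPM. Its 13904 reads over the 3 libraries fall on a gene shorter than a usual read, so its TPM is not comparable with those of messenger RNAs.

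**Figure D2:**
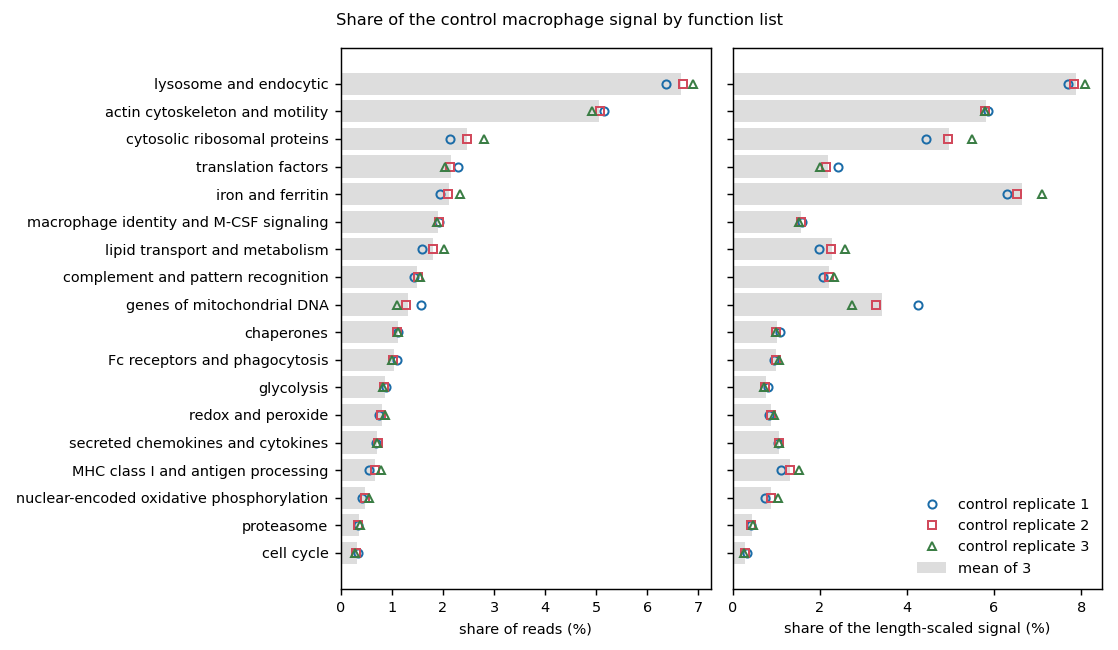
Share of the signal of control macrophages in 18 function lists, as a percentage of reads on genes (left) and of the length-scaled signal (right). Points are the 3 control replicates and grey bars their mean; lysosomal genes lead on both scales, and ferritin and iron genes move to second place per length.

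The 18 function lists with 703 listed genes, each gene counted once, held 30.6, 31.2 and 32% of the reads and 44.6 ± 0.966% of the length-scaled signal. Lysosomal and endocytic genes took the greatest share, 6.36, 6.71 and 6.9% of reads. Per length they held 7.88 ± 0.192%, with Lyz2 alone at 19964 TPM. Without Lyz2 they would stand below the ferritin and iron list (6.64%) on that scale. Of the 63 genes in the list, 55 reached 100 TPM and the median was 305 TPM, against 10.03% of all 15526 protein-coding genes at 100 TPM and a median of 10.7 TPM. Beside Lyz2 and Psap, the proteases Ctsb (4862 ± 138 TPM), Ctsd (4708 ± 57.4 TPM), Ctss (3219 ± 401 TPM) and Lgmn (2645 ± 208 TPM) led. Genes of the proton pump that acidifies lysosomes, named after their values were seen, were lower, with Atp6ap1 at 449, Tcirg1 at 372, Atp6v1g1 at 364 and Atp6v1b2 at 333 TPM.

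Actin cytoskeleton and motility genes took 5.16, 5.07 and 4.91% of reads, and 49 of 61 reached 100 TPM. After Tmsb4x and Actb came Actg1, the other cytoplasmic actin (2209 ± 171 TPM), Cfl1, which severs filaments (1798 ± 78.7 TPM), and Pfn1, which loads monomers onto their ends (1548 ± 40.6 TPM). The ferritin and iron list had only 10 genes but 1.94, 2.1 and 2.34% of reads and 6.64 ± 0.41% of the length-scaled signal. Most of it was Fth1 and Ftl1. Hmox1, which frees iron from heme, reached 1614 ± 55.9 TPM, while the iron exporter Slc40a1 had 63.3 ± 4.12 and the transferrin receptor Tfrc 212 ± 29.8 TPM.

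Translation held shares of a like size. Translation factors took 2.3, 2.13 and 2.03% of reads and cytosolic ribosomal protein genes 2.14, 2.46 and 2.81%. In the ribosomal list 75 of 89 listed genes reached 100 TPM, led by Rplp1, Rplp0 (2452 TPM), Rps3a1 (2023 TPM) and Fau (1518 TPM). Genes of mitochondrial DNA took 1.57, 1.28 and 1.1% of reads, while the 82 nuclear genes for oxidative phosphorylation took 0.411, 0.473 and 0.553%. The mitochondrial share was highest in replicate 1 and the nuclear share in replicate 3. Glycolysis, with 17 genes, took 0.885, 0.845 and 0.831%, led per length by Aldoa (1689 ± 107 TPM), Pkm (1496 ± 135 TPM) and Pgk1 (869.9 ± 96.3 TPM). The glycolytic enzyme gene Gapdh was listed at only 10.2, 11.2 and 86 TPM, and replicate 3 stood apart from the others.

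Genes for sensing and uptake were high as well. Complement and pattern recognition genes took 1.43, 1.51 and 1.54% of reads. The 3 chains of C1q led, C1qb being followed by C1qa (2549, 2974 and 3326 TPM) and C1qc (1795, 2112 and 2398 TPM), and then Cfp, the properdin gene (1492 ± 13.9 TPM). Among toll-like receptors the endosomal Tlr7 (550.1 TPM), Tlr8 (382), Tlr13 (231) and Tlr9 (164) stood above Tlr4 (70.5), the receptor for endotoxin. Of the receptors at the cell surface Tlr2 had 228 and Tlr5 1.85 TPM. These receptors were named after their values were seen. Fc receptor and phagocytosis genes took 1.11, 1.02 and 0.991%, led by the signalling adaptors Fcer1g (2522 ± 422 TPM) and Tyrobp (1569.6 ± 383 TPM). Lipid transport and metabolism took 1.58, 1.81 and 2.02%, of which Apoe made up most. After Apoe the list went on with Lgals3, which encodes a galectin and not a lipid carrier or enzyme (852 ± 41 TPM). Next came Plin2, which coats lipid droplets (502 ± 12.3 TPM), and Lpl, a lipase of lipoproteins (397 ± 71 TPM).

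The genes for macrophage identity and M-CSF signaling took 1.91, 1.93 and 1.88% of reads, the share that differed least between libraries relative to its size among the lists above 1%. Adgre1 (4015 ± 566 TPM) and Csf1r (1786 ± 149 TPM) led it. MHC class I and antigen processing genes took 0.546, 0.675 and 0.786%, with B2m, H2-D1 (3101 ± 412 TPM) and H2-K1 (1586 ± 235 TPM) in front. The class II genes of the same list were far lower. The invariant chain Cd74 had 197 TPM, with H2-Eb1 at 37.5, H2-Ab1 at 31.5 and H2-Aa at 26.7 TPM, and their master regulator Ciita at 1.22 TPM. They were named after their values were seen.

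Secreted factors took 0.694, 0.715 and 0.705% of reads, and the list ran over a wide range. Spp1 led, followed by Chil3, a chitinase-like lectin (1132 ± 57.7 TPM), Pf4, a CXC chemokine also known from platelets (663, 979 and 1117 TPM), and Ccl6 (890.0 ± 55.1 TPM). The median of the list was 52.1 TPM, and 18 of its 40 genes reached 100 TPM. Further genes were named after their values were seen. Tnf stood above this median at 109, 126 and 132 TPM, and Il10 near it at 40.2, 50.2 and 61.8. Lower were Il1b at 16.6, 20.3 and 17.2, Il12b at 1.04, 1.69 and 2.62 and Il6 at 0.421, 0.99 and 0.365. Ccl17 had no read in any control library. Redox genes took 0.742, 0.789 and 0.853%, led by the peroxide-removing Prdx1 (1698 ± 251 TPM) and Cat (1098 ± 108 TPM) and the NADPH oxidase subunits Cyba (1019 ± 156 TPM) and Cybb (850.1 ± 124 TPM). Chaperones took 1.12, 1.1 and 1.12%, led by Hspa8 (1588 ± 75.5 TPM) and Hsp90ab1 (1492 ± 138 TPM). Proteasome genes took 0.323, 0.34 and 0.377%. The cell cycle list took 0.336, 0.292 and 0.282%, led by the tubulins Tubb5 (928 ± 173 TPM) and Tuba1b (698 ± 48.3 TPM). Its other members were mostly far lower: the median was 27 TPM, and 3 of the 37 genes reached 100 TPM. The proliferation genes Mki67 and Top2a had 61.6 ± 18.7 and 55.7 ± 13.9 TPM.

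Protein-coding genes carried 98.7, 98.6 and 98.6% of the reads, and the other 32 biotypes together 1.33, 1.39 and 1.4%. Processed pseudogenes held 0.372, 0.384 and 0.413% and lincRNAs 0.295, 0.305 and 0.358%. Among lincRNAs, Neat1, the RNA scaffold of nuclear paraspeckles, had normalized counts of 8940.4, 15618 and 22144, and Malat1, an RNA of nuclear speckles, had 12696, 4454 and 4878. The libraries ordered these genes differently: replicate 1 was the highest for Malat1 and the lowest for Neat1. Next was 2900097C17Rik, with 4923, 4849 and 4338 and little difference between libraries. The most read antisense gene was Tug1 (1995 ± 268), and the most read genes called processed transcripts were Cct6a (2171 ± 174), Ifi30 (1841 ± 184) and Tmem134 (1814 ± 224). Cct6a and Ifi30 encode known proteins, a chaperonin subunit and a lysosomal thiol reductase, so the share outside the protein-coding biotype includes reads of known protein genes. Whether reads were counted by strand is not given in the sources used here, and reads of an antisense gene cannot then be told from those of its overlapping partner.

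How reads shared between a gene and its pseudogene copies were placed is not given in the sources used here, and its part in the values below was not tested. Of 152 ribosomal and other parent genes with named pseudogene copies and a joint mean of at least 100, the copies held more reads than the parent in 6. For Rps10, a protein of the small ribosomal subunit, the parent had 22, 44.2 and 50.7 and its 2 copies together 1882, 2290.4 and 2423. For Rpl17 the parent had 1326, 1777 and 1569 and its 6 copies 4514, 5195 and 5805. Mitochondrial genes were uneven too. mt-Co1 held 59.4, 63 and 63.4% of the reads on the 13 protein-coding genes of mitochondrial DNA, while mt-Co2 had 375, 293 and 342, mt-Atp6 234, 185 and 102 and mt-Co3 219, 145 and 116. Gm29216, an unprocessed pseudogene on chromosome 1, had 1273, 192 and 108. Levels of these genes are given as deposited and are uncertain.

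**Figure D3:**
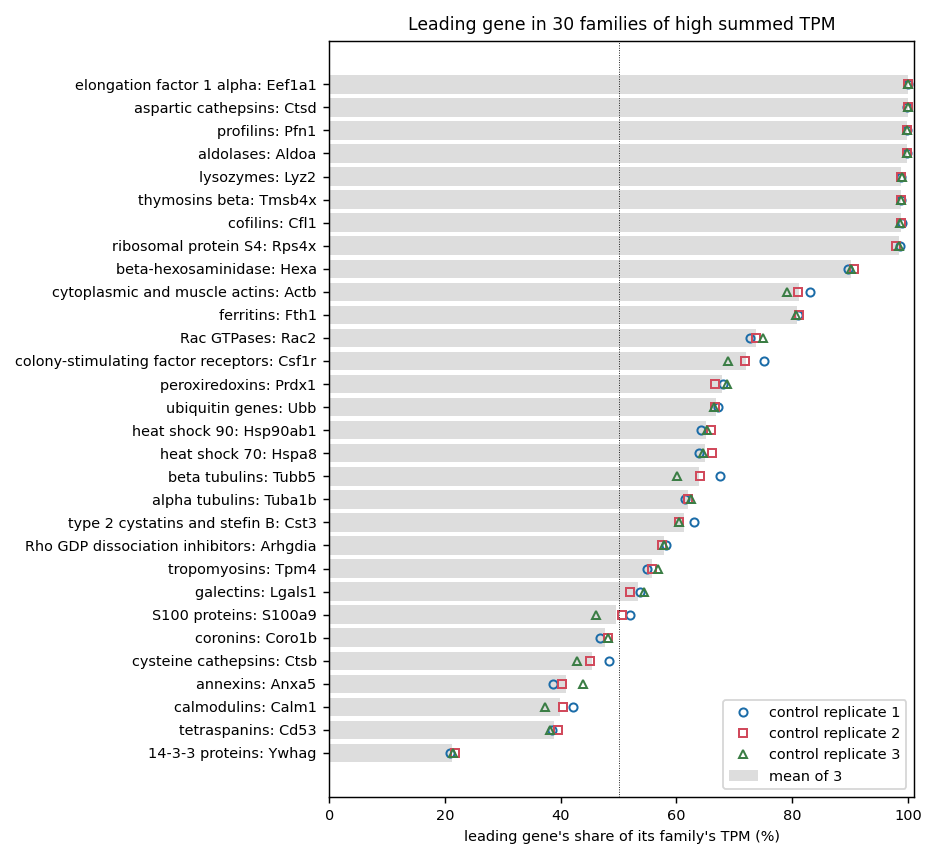
Share of a gene family's summed TPM held by its leading gene (horizontal axis, %) in 30 families of high summed TPM. Points are the 3 control replicates, grey bars their mean, and the dotted line marks 50%; 8 families lie above 95%, from Eef1a1 to Rps4x, and the 14-3-3 proteins lie lowest with Ywhag at 21.3 ± 0.407%.

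Families of related genes differed in how far a single member carried the signal. Of 88 families in the lists, 86 had at least 2 listed members. The leading member held at least 90% of the family's TPM in 29 of them, between 50% and 90% in 45, and under 50% in 12. The same member led in every library in 82 families. The 4 exceptions were the superoxide dismutases, the 14-3-3 proteins, the calmodulins and ribosomal protein S27. For Rps27 the share was 37.6, 61.9 and 42.9%, so Rps27l led in replicates 1 and 3. Over the 86 families the median SD of the leading share was 1.11 percentage points.

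Several families with metabolic or cytoskeletal roles were close to single-gene in these cells. Aldoa held 99.8 ± 0.0284% of the aldolase signal, Ctsd 99.9 ± 0.00794% of the aspartic cathepsins and Pfn1 99.9 ± 0.0369% of the profilins. Ldha held 97.5, 97.3 and 97.3% over Ldhb, Cox4i1 99.4, 99.3 and 99.9% over Cox4i2, and Cpt1a, which brings fatty acids into mitochondria, 97.7, 97.4 and 97%. Cybb, the catalytic subunit of the phagocyte NADPH oxidase, held 99.9 ± 0.0703% of its family. Eef1a1 had 9421 ± 1152 TPM and Eef1a2, its copy known from neurons and muscle, had no read in any control library. Tgfb1 held 98.1, 98.2 and 98% of the TGF-beta ligand signal and Scd2, a desaturase of fatty acids, 94.6, 95.7 and 94.4%, with Scd1, the main form of liver, at 12.1 TPM.

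Other families divided their signal between members. Rac2, the Rac GTPase of blood cells, held 72.6, 73.7 and 75% over the widely expressed Rac1. Without length scaling the leader changed in 10 of the 86 families, with Arg1 leading the arginases and Psmb8 its pair with Psmb5. Pik3cd, the leukocyte form of the PI3-kinase catalytic subunit, held 48.7, 50.2 and 51.8%, followed by Pik3cg. Hk3 led the hexokinases with 59.6, 63.5 and 66.3%, over Hk2 (89.2 ± 16.9 TPM) and the widely expressed Hk1 (59.7 ± 11.6 TPM). Tcirg1 held 66.8, 71 and 76.2% of the V0 subunit a genes. Psmb10 led its pair over Psmb7 with 71.4, 74.4 and 78.2%, whereas the constitutive Psmb5 led over the immunoproteasome subunit Psmb8 with 70.04, 66.1 and 66.7% and Psmb6 over Psmb9 with 81.4, 77.6 and 76.6%. Among the STATs Stat6, the factor downstream of interleukin 4, led with 38.2, 37.8 and 35.4%, and among the receptors for colony-stimulating factors Csf1r held 75.1, 71.8 and 69%. Arg2 and Arg1 were both low and overlapped, at 4.89, 7.77 and 7.46 and 4.36, 5.31 and 4.22 TPM, as was Nos2 at 3.86, 3.73 and 4.42 TPM. Arginase 1 and Nos2 are enzymes commonly used as marks of polarized macrophages. Not all genes used as such marks were low: Mrc1 had 460, 391 and 354 TPM, and Chil3, given above with the secreted factors, was high too.

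The lysozyme genes Lyz2 and Lyz1 lie next to each other on chromosome 10 and shared most of their start-proximal sequence, which is why it is shown. Lyz2 (ENSMUSG00000069516, chromosome 10, 117277331 to 117282321, minus strand on mm10) held 98.9, 98.8 and 98.9% of the pair's TPM, and Lyz1 (ENSMUSG00000069515, chromosome 10, 117287797 to 117292868, minus strand) had 217, 234 and 236 TPM. The ratio of Lyz2 to Lyz1 was 86.7, 82.4 and 92.2. The 120 bases before each RefSeq start (build GRCm38.p6, minus strand, chr10:117282273-117282392 and chr10:117292869-117292988) are given from 5′ to 3′, with the bases that differ in capitals. The RefSeq start of Lyz2 lies inside the deposited gene, so part of its window overlaps it.
Lyz2: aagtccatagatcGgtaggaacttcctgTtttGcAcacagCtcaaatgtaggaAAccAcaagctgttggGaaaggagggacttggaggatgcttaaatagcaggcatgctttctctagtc
Lyz1: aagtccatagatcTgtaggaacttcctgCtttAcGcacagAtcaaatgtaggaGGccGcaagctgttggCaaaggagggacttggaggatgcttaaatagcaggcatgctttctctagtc
They differed at 9 of 120 positions, an identity of 92.5%, and the last 50 bases before the start were the same. Since the transcripts are near copies as well, the split of reads between these genes may depend on how shared reads were counted, which was not tested.

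Reads on marker genes of other cell types were summed by list, in RPM. Whether macrophages themselves transcribe a given marker was not tested, so a sum need not come from cells of the type named. The macrophage list of 15 genes summed to 21686, 22802 and 24471 RPM. In bulk RNA, fewer cells of a type and less RNA per cell cannot be told apart, so these sums are no cell shares. As a level for RNA of cells that marrow does not hold, the listed markers of hepatocytes, skin, testis, skeletal muscle, intestine and neurons summed to between 0.148 and 8.79 RPM. Most of these markers were not listed in the rows analysed here, and of the neuron sum 74.5% was Tubb3, a tubulin that other cells also transcribe.

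**Figure D4:**
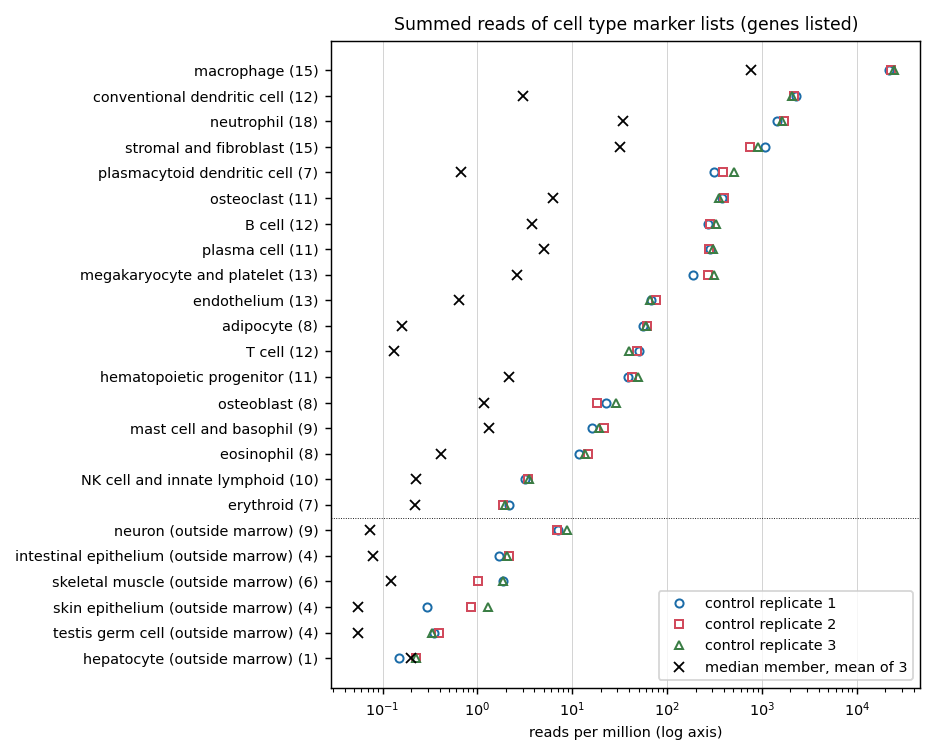
Summed RPM of cell type marker lists in control macrophages (horizontal axis, log scale), with the number of genes listed in brackets. Coloured points are the 3 control replicates, crosses the median member of each list over the 3, and lists under the dotted line stand for tissues outside marrow; the macrophage sum is at least 21686 RPM, and the erythroid and NK lists lie within the range of the outside lists. The NK list does so only through the neuron list.

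Neutrophil markers gave the highest sum after the macrophage and conventional dendritic cell lists. All 18 had reads and the list summed to 1435, 1708 and 1645 RPM, with a median member at 34.7. The most reads fell on the granule gene Ngp, at 352, 436 and 426 RPM. Next were S100a9 at 237, 299 and 313, S100a8 at 157, 223 and 255 and the granule gene Ltf at 203, 208 and 173 RPM. The primary granule genes Mpo and Elane had 86.8, 81 and 67.3 and 40.1, 41.8 and 40.9, while the surface marker Ly6g had 0.395, 0.791 and 1.06 and the chemokine receptor Cxcr2 3.36, 3.73 and 3.69. S100a9 and S100a8 were also the first members of the S100 family by TPM.

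Stromal and fibroblast markers summed to 1081, 746 and 919 RPM, with all 15 read and a median member at 32.1. Col1a2 had 368, 261 and 331 and Col1a1 316, 197 and 261, the chains of type I collagen, and Col3a1 had 85.9, 64.2 and 75.5. The sum was lowest in replicate 2. The osteoblast list was low, at 22.5, 18.5 and 29.3, and the bone matrix gene Bglap was close to 0. The osteoclast list of 11 genes summed to 380.3, 397 and 352, with a median member at 6.29. Tnfrsf11a, the receptor for RANKL (94.4, 99.1 and 86.4), led it with 24.8% of the sum. Other members, not named here, carried most of the 286, 298 and 266 left without it. Ctsk, the collagen protease of mature osteoclasts, lay below the median at 3.8, 3.56 and 3.69.

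B cell markers summed to 272, 285 and 331 RPM. Ighm, the constant region of IgM, had 148, 156 and 185 and made up 55% of the sum. Blnk had 75.6, 76.8 and 80.7 and Cd79b 30.1, 32.1 and 37.2, and the lineage genes Pax5, Cd79a and Ms4a1 stood between 3.81 and 4.21 RPM on average. The plasma cell list summed to 281, 280.1 and 306, mostly through Xbp1, which many secretory cells use (185, 182 and 194), and Jchain had 2.91, 4.12 and 5.15. Each of the T cell receptor and CD3 genes (Trac, Trbc1, Trbc2, Cd3e, Cd3g and Cd3d) stood at or below 0.143 RPM, while Cd4 and Il7r had 22.2, 22.4 and 19.4 and 24.3, 22.3 and 15.6. NK cell markers summed to 3.16, 3.45 and 3.47 and erythroid markers to 2.17, 1.86 and 1.96, both within the range of the outside lists, and Hbb-bt, a beta-globin gene, had no read. For NK markers this rests on Tubb3 in the neuron list, which without it summed to 1.83, 1.69 and 2.29. The NK sum then lay above every outside list.

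The dendritic cell sums rested on genes that macrophages also express. Sirpa made up 96.5% of the conventional list, which summed to 69.5, 74.4 and 83.2 RPM without it. All 12 listed genes were read in every library, 8 of them at 1 RPM or more, with a median member at 3.01. The defining genes Zbtb46, Xcr1, Flt3 and Clec9a lay below this median, at 1.64, 0.702, 0.386 and 0.304 RPM, and other members above it are not named here. Bst2 and Tcf4 made up nearly all of the plasmacytoid list (312, 389.6 and 513), and Siglech, its defining surface gene, had 0.247, 0 and 0.112. Pf4 made up 79.2% of the megakaryocyte and platelet list (186, 270.1 and 311). Without Pf4 this list summed to 47.6, 54.6 and 57.5, and all 13 listed genes were read in every library, with a median member at 2.61. The platelet receptor genes Gp1ba, Gp5, Gp9 and Gp6 stood between 0.734 and 3.11, and higher members other than Pf4 are not named here. Pecam1, an adhesion molecule also found on white blood cells, made up 84.8% of the endothelial list, with Cdh5, the cadherin of endothelium, at 1.63, 2.2 and 1.4. Lipe, Pparg and Fabp4 carried the adipocyte list (55.8, 61.8 and 60.4), and Adipoq, the adipocyte hormone adiponectin, stood at 0.0329. The mast cell and basophil list summed to 16.3, 21.9 and 19, the eosinophil list to 11.7, 14.7 and 13.6 and the progenitor list to 38.5, 42.8 and 49. What part these RNAs have in the sums of the function lists was not tested.

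The 3 libraries differed by more than counting noise. Among 11067 genes with a mean of at least 50, the median CV was 10.3%, against 4.17% from counting alone. The CV was over 25% in 839 genes, and over 50% in 45. Over the pairs of libraries left, 480 genes had a CV over 25% without replicate 1, 1770 without replicate 2 and 644 without replicate 3. Replicates 1 and 3 were the farthest apart. At least 1.5-fold higher in replicate 1 than in replicate 3 were 522 genes, and at least 1.5-fold higher in replicate 3 than in replicate 1 were 727.

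**Figure D5:**
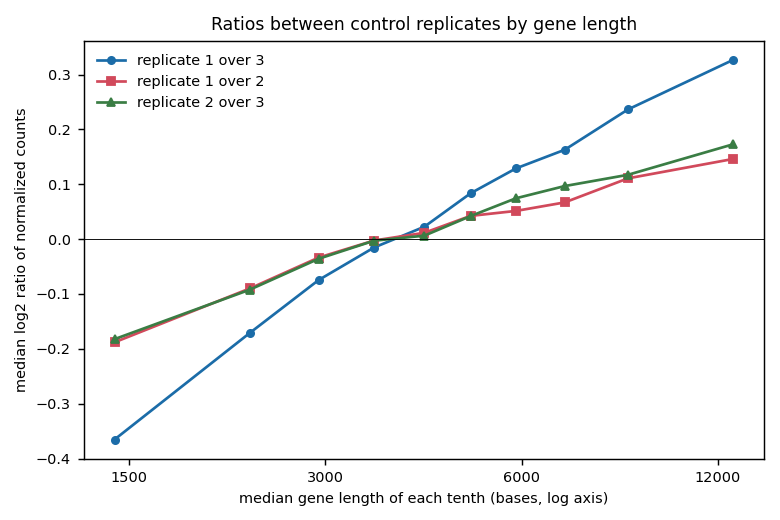
Median log2 ratio of normalized counts between control replicates (vertical axis) in 10 equal groups of 10504 protein-coding genes ordered by length (horizontal axis, median bases, log scale). Lines are the 3 pairs of replicates; all 3 go up with length, and the ratio of replicate 1 to 3 spans −0.37 to 0.33.

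Part of this difference followed gene length. In the shortest of 10 groups of protein-coding genes (median 1423 bases) the median log2 ratio of replicate 1 to replicate 3 was −0.37, and in the longest group (median 12692 bases) it was 0.33. Replicate 2 lay between, at −0.18 and 0.17 relative to replicate 3. The pattern was present at low, middle and high mean counts. Among the shortest 20% of genes at each level the medians were −0.34, −0.25 and −0.15. Among the longest 20% they were 0.21, 0.22 and 0.33. Long genes such as Lrp1 and Myh9, a myosin heavy chain (40914, 29576 and 21568), were highest in replicate 1, and short genes such as B2m (25984, 31543 and 38502) and C1qb (24152, 29896 and 34798) in replicate 3. Lists of short genes went the same way. The 83 ribosomal protein genes with a mean of at least 50 (median length 1734 bases) and the 78 nuclear genes for oxidative phosphorylation (1709.5 bases) had median log2 ratios of replicate 1 to 3 of −0.40 and −0.54, against 0.04 over all genes. The 12 stromal and fibroblast markers (8333 bases) had 0.34. Genes of mitochondrial DNA are short and had 0.70, the other way. With the median of each length group removed, a step chosen after seeing the data, 464 of 10504 protein-coding genes had a CV over 25%, against 711 before, and the median CV was 8.61%, against 10.2%. The cause of the length pattern was not tested.

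The 20 genes with the highest CV were a mixed group. Gm29216, Gm10705, Gm8325 and Rpl30-ps10 are pseudogenes, and Gapdh, Rpl21, Sumo2, Snrpe and Rps27rt belong to families with many processed copies. Of Gapdh, 1 copy named as its pseudogene was listed, with no read in any control library. Whether copies have a part in the spread was not tested. Gapdh had normalized counts of 218, 246 and 1882 and Rpl21 247, 315 and 1003, with replicate 3 far above the others in both. Sumo2, a ubiquitin-like modifier, had 632, 102 and 121, with replicate 1 apart. Snhg20 and Snhg5, hosts of small nucleolar RNAs, had 45.8, 118 and 247 and 45.8, 84.5 and 173. CT010467.1, a gene of the rRNA biotype, and the 57-base Gm23935 were highest in replicate 2, with 4027, 8243 and 2177 and 4171, 7238 and 1697. Lars2 and Gm24270, named after their values were seen, had the same order, with 1286, 2194 and 639.9 and 78.4, 119.9 and 31.9.

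Genes of known immune function were in the group too. Ccl8, a monocyte-attracting chemokine, had 52.8, 83.6 and 182, and Gbp4, an interferon-inducible GTPase, had 33.5, 77.7 and 140.0. Clec2d, a lectin-like ligand of an NK cell receptor, had 133, 391 and 678, and Cd300ld3, a member of the CD300 receptor family, had 23.8, 95.4 and 151. All of these were highest in replicate 3. With the length pattern removed, 19 of the 20 protein-coding genes with the highest CV stayed among the first 20.

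Promoter letters were read from RefSeq for the genes that led the ranking. Of the 200 most abundant protein-coding genes per length, 154 were matched by symbol, and a gene counted as holding a motif if any of its starts did within the 250 bases before it. Each share is set against that of all 27025 genes in the table and then that of the 8399 matched protein-coding genes with a mean of at least 50. The GC box (GGGCGG) was in 55.2%, against 35.4% and 65.3%, so it lay above the first of these and below the second. The NRF2 element (TGACNNNGC) was in 18.8%, against 11.5% and 14.2%, and CCAAT in 41.6%, against 37.5% and 40.9%. Rare motifs gave few matches. The core TCACGTGA, bound by factors that drive lysosomal genes, was in 5 of 154 genes (3.25%, against 0.907% and 1.92%). The purine core GAGGAAGT was in 7 (4.55%, against 2.79% and 3.25%). The ETS core CCGGAAGT was also in 7 (4.55%, against 3.23% and 7.37%), above the share of all genes and below that of genes with a mean of at least 50. The NRF1 site GCGCATGCG went the same way (2.6%, against 1.64% and 3.76%), and the AP-1 site TGANTCA the other way (6.49%, against 7.82% and 5.25%). The TATAAA box between 40 and 20 bases before the start was in 2.6%, against 2.25% and 1.08%, and the C/EBP palindrome TTGCGCAA in none, against 0.185% and 0.31%. All but the TATAAA box were searched on both strands. A match is a description of letters, and no test of a difference was made.

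Windows of 120 bases before the start are shown for 3 genes, chosen since Fth1 led the ranking, Ctsd differed least between libraries among the first 30 genes and Cd68 is a marker of the cells. Capitals mark GC and CCAAT boxes in Fth1 (chr19:9982526-9982645, plus strand, at the RefSeq start nearest to the deposited gene start), the TCACGTGA core, a GC box and NRF2 elements in Ctsd (chr7:142387828-142387947, minus strand), and CCAAT boxes, a GC box and an AP-1 site in Cd68 (chr11:69666171-69666290, minus strand), all from RefSeq on GRCm38.p6 and written 5′ to 3′ on the gene's strand.
Fth1: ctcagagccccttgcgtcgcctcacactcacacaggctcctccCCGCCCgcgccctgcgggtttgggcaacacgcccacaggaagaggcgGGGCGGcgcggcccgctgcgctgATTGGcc
Ctsd: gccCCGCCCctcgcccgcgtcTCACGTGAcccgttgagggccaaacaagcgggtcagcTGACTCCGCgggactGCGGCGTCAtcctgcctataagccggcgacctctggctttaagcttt
Cd68: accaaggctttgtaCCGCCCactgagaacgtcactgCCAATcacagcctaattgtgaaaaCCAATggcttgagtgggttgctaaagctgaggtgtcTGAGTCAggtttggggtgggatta
The Fth1 window held GC boxes on both strands and an inverted CCAAT box close to the start. The Ctsd window held an NRF2 element on each strand, and it lies wholly inside the deposited Ctsd gene, whose start is farther upstream than that of RefSeq. The Cd68 and Fth1 windows lie before the deposited start.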

How the data were processed

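RNA was measured in 3 control samples. The signal the authors deposited is a gene's read count divided by 1 size factor per library. Dividing by each library's smallest step gave whole reads for 100% of values, with a tolerance of 0.001, so counts were recovered. Per the submitters' processing notes, HISAT2 2.1.0, Bowtie2 2.2.3 and HTSeq 0.6.0 were used on build mm10, with roles not stated. Annotation release, strand setting, handling of reads with several matches and size-factor tool: not given in the sources used here. Gene length, as deposited and in bases, was below the genomic span in 78.5% of genes and above it in none, and was used for TPM.

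From the recovered reads, Python 3.11.15 with numpy 2.4.6 and pandas 2.3.3 gave RPM, TPM, shares and the CV over 3 libraries, with the counting CV from the reads alone. Depth was 17706149 to 20259175 reads on genes per library. Of the gene identifiers, 23324 of 23346 were in a name table, and 25 symbols stored as dates were restored from it. For a symbol with several identifiers (10 symbols) the most abundant was used. A gene in several function lists counted in the first.

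Genes named in the text were the 30 highest by mean, the 20 highest per length, the 3 highest of each noncoding biotype, the first 4 of each list or family, the 20 with the highest CV, the label markers and Ets1. Other genes named, mostly further members of the lists, were singled out after their values were seen. The members and lists were chosen with earlier results of these data known. With 1 group, no test was made, and all values are descriptions. Some items are not reported here. Scripts were tested on simulated data. Promoter sequences are from RefSeq, build GRCm38.p6.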

Additional observations from a re-analysis of the deposited data

How the results depend on the processing

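No paired analysis was possible because a single group is described. Leaving out each replicate in turn kept 28 to 29 of the 30 most abundant genes, and gave 18207 to 18365 genes read in every library kept, 23.3% to 23.4% of reads in the first 100 genes, 98.60% to 98.64% of reads in protein-coding genes, 30.9% to 31.6% in the function lists, 28 to 29 families led by a single gene at 90% or more, and 6428 to 6543 RPM in the marker lists of other marrow cells together. The spread between libraries depended on which were kept: 480 genes had a CV over 25% without replicate 1, 1770 without replicate 2 and 644 without replicate 3, against 839 with all. It also depended on the minimum mean, with 1521 genes at a minimum of 20 and 370 at 200, since more or fewer genes enter.

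Ranked per kilobase, 19 of the 30 most abundant genes stayed, since the scale changes with length. Without genes of mitochondrial DNA the first 100 genes held 22.9% of reads, among genes with at least 1 RPM protein-coding genes held 98.7%, and on the length-scaled signal the function lists held 44.6%. Without its most abundant member, Sirpa, the sum over other marrow cells was 4396 RPM, against 6498 with it. Of 18 function lists, 15 moved by more than their SD on the length-scaled signal, and 23 of 47 alternatives of single marker lists moved likewise, all of them by leaving out the most abundant member. With at least 5 reads in every library 14508 genes counted as detected, and with a mean of at least 1 RPM 12841, against 17494. Ranking by the median or by RPM kept 29 and 30 of the 30 genes, and size-factor scaling gave a sum of 6496 over other marrow cells. Unscaled shares left 29 families at 90% or more but changed the leader in 10. For the first 100 and 500 genes the GC box was in 55.1% and 57.2%, and the TATAAA box in 5.13% and 3.09%, against 2.6% for 200; the C/EBP palindrome was in 0.515% of the first 500.

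Chosen after seeing the data, removal of the length pattern moved the count of protein-coding genes with a CV over 25% to 464, against 711, and leaving out genes under 200 bases kept 19 of the 20 genes highest per length. The span of the length pattern was 0.67 to 0.69 on the log2 scale at other minimum means, against 0.69. Family shares by coding length were not run, since no protein table was used here. Depth limits genes near 3 reads over the group, and a gene with no read may still be transcribed below that level.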

Other observations

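The deposited table assigns 1128 genes to transcription factor families, and together they held 26153, 25002 and 24139.7 TPM. Of these genes 443 reached 10 TPM and 59 reached 100 TPM, with a median of 5.79 TPM. Ybx1, a cold shock domain protein that binds DNA and RNA, was first with 927, 810.5 and 741 TPM. Spi1, which encodes PU.1, the main factor of the myeloid lineage, followed with 489, 555 and 621, and Cebpb with 416, 488 and 583. Maf, a leucine zipper factor of mature macrophages, had 481, 446 and 384. Hmga1, a protein that bends DNA, had 391, 349 and 368. Klf6 had 325, 322 and 276, Irf5 241, 247 and 268, Atf3 219, 274 and 262, Cebpa 272, 223 and 238 and Nfe2l2, the factor of the oxidant response, 217, 219 and 236. Irf5, Atf3 and Cebpa overlapped, and Nfe2l2 lay below each of them in every library.

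By family, the 46 leucine zipper genes held 3505, 3558 and 3472 TPM, with a median of 31, and the 23 ETS genes 1384, 1387 and 1367, with a median of 34.7. The 493 zinc finger genes of the C2H2 kind held 6049.8, 5652 and 5313 with a median of 5.07, and the 104 homeobox genes had a median of 0.596 TPM, with Cers2, a ceramide synthase, highest at 208, 209.9 and 225. The ETS sum differed little between libraries, with an SD of 10.4 TPM, while its members were highest in different libraries. Spi1 was highest in replicate 3, and Fli1, Ets1, Ets2 and Elf4 in replicate 1. The deposited gene lengths were 2695 bases for Spi1 and 8476, 5780, 6148 and 3486 for Ets1, Ets2, Elf4 and Fli1. Whether the length pattern between libraries has a part in this was not tested.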
